A study of Mus musculus with 16 samples.

Results

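Immunoglobulin genes were followed across 16 RNA-seq libraries of F4/80+ adipose tissue macrophages (ATMs). The group held 152 of the 37310 genes in the count table. A gene was included when its symbol was that of a variable, diversity, joining or constant segment of the heavy, kappa or lambda locus. The DNA helicase gene Ighmbp2, whose symbol resembles these, was left out. Libraries were made from F4/80+ cells of epididymal fat pads of male C57BL/6 mice on a high-fat diet (HFD). WT and IRF5-KO mice were fed for 4 weeks (short term, ST-HFD) or 12 weeks (long term, LT-HFD), with 4 libraries in each of the 4 groups. IRF5-KO mice were made by crossing mice with a floxed Irf5 to LysM-Cre mice, in which Cre is driven from the lysozyme gene Lyz2 in myeloid cells, so B cells were not the targeted cells. The sources used here do not give which of these alleles the WT mice carried, and no library from mice on normal chow was analysed here. IRF5 is a transcription factor of inflammatory macrophages, and the study compared the genotypes at each diet duration.

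An antibody is built from 2 heavy and 2 light chains, and each chain joins a variable region, which binds antigen, to a constant region. Developing B cells assemble the variable region by joining 1 variable (V) segment of many to short diversity and joining segments, so an mRNA shows which V segment its cell had joined. The same V segment is used by many unrelated B cells, and counts per segment do not read the junction that marks a clone. Each B cell uses either the kappa or the lambda light chain. Heavy chains of the mu class form IgM, the first class a B cell makes and the main product of B-1 cells, a B cell type common in body cavities and in the fat depots beside them. Plasma cells secrete antibody and hold very large amounts of its mRNA. Macrophages do not rearrange these genes, but they bind antibody through Fc receptors.

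The libraries held 3279332 to 4958131 counts, and the immunoglobulin genes took 0.0154% to 0.0460% of them. The macrophage markers Adgre1 (F4/80), Csf1r, Cd68, Fcgr1, Mertk, Mrc1, C1qa, C1qb and Itgam were counted in every library, and their summed level in CPM (counts scaled to library size, here with TMM factors) was 8843 to 9823 in WT and 8206 to 9523 in IRF5-KO on ST-HFD. On LT-HFD it was 7145 to 8867 in WT and 6467 to 7098 in IRF5-KO. Irf5 itself was at 250 to 273 CPM in IRF5-KO and 202 to 251 CPM in WT libraries on ST-HFD, and at 205 to 253 and 169.9 to 212 CPM on LT-HFD, so its total was no lower under the IRF5-KO label. Counts summed over a whole gene cannot show the loss of single exons. Lyz2, which carries Cre in the LysM-Cre line, was at 1391 to 2056 CPM in the libraries labelled IRF5-KO and at 2959 to 4031 CPM in those labelled WT. Genotypes are given below as labelled. On ST-HFD 18.6% to 24.1% of a library lay in its 3 most counted features and on LT-HFD 26.1% to 34.5%, so this share separated the durations as well. The labels number the libraries of a group without saying that each came from its own mouse, so p-values below measure the spread between libraries.

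Of the 152 genes, 98 had a count in some library and 54 had none, a level that allows up to 3 counts each. The 98 held 20366 counts in all. Ighm, the mu constant gene of IgM, took 62.6% of them and Igkc, the single kappa constant gene, took 20.5%. Ighm lies on chromosome 12 of GRCm38 from 113418558 to 113422730 on the minus strand, and Igkc on chromosome 6 from 70726435 to 70726966 on the plus strand. The 100 kappa V segments held 2402 counts, the 37 heavy V segments 447, the lambda constant genes Iglc2 and Iglc3 260 and the 3 lambda V segments 196. Of the 5 kappa joining segments, 1 had a single count. The constant genes of IgG were near the limit of counting. Ighg1 had no count, Ighg2c had 34 and the gene listed as Ighg, whose identifier is that of Ighg2b in GENCODE M21, had 96. Constant genes of IgA and IgD and the lambda constant gene Iglc1 were not analysed here.

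Most V segments were seen in few libraries. Of the 140 V segments of the 3 loci, 49 had no count, 20 were counted in 1 library alone, 11 in at least 8 libraries and none in all 16. The pair counted most widely was Igkv14-126 and Ighv11-2, each present in 15 libraries. The germline sequences of 5 segments are given because the pattern of V segments rests on them. The first pair recurs in nearly every library, Igkv4-59 was counted in 2 libraries on ST-HFD and all 8 on LT-HFD, and Igkv10-94 and Igkv8-19 stood high in 1 library each. They were matched by symbol only, as M21 gives these 5 segments other identifiers than the count table. They were taken from GENCODE M21 transcripts on GRCm38 and run 5′ to 3′ along the last coding exon of the segment (its last 300 bases where the exon is longer). Capitals mark the last match to TANTNNTGN on the coding strand, which in these segments covers the codons for Tyr, then Tyr or Phe, then Cys that lead into CDR3, the loop where V and J segments are joined. The motif was found in the last 100 bases of 96.0% of 300 annotated V segment transcripts, so it marks a position that these segments share with nearly all others.

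Igkv14-126 (kappa, chr6:67896345-67896642, plus strand): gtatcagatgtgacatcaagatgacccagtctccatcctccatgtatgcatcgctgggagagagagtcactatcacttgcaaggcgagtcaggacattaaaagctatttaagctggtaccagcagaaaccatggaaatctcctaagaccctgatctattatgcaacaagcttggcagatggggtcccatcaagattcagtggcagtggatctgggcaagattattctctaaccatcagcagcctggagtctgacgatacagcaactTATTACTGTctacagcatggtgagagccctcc
Ighv11-2 (heavy, chr12:114048241-114048540, minus strand): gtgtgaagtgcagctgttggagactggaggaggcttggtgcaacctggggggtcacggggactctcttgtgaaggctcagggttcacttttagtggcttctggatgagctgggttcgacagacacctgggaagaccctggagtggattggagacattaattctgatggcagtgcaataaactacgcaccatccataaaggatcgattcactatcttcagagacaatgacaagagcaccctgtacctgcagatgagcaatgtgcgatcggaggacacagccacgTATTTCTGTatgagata
Igkv4-59 (kappa, chr6:69438218-69438517, minus strand): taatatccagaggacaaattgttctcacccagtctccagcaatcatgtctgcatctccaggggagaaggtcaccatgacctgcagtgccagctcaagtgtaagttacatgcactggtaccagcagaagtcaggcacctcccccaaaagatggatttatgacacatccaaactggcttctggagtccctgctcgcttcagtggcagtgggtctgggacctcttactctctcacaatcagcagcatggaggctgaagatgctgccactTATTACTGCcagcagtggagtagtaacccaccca
Igkv10-94 (kappa, chr6:68704508-68704805, minus strand): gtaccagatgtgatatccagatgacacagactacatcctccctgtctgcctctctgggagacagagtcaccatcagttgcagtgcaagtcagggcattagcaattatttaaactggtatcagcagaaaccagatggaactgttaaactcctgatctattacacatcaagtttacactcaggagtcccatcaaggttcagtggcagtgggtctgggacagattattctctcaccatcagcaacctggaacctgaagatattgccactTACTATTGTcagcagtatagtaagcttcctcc
Igkv8-19 (kappa, chr6:70340876-70341175, minus strand): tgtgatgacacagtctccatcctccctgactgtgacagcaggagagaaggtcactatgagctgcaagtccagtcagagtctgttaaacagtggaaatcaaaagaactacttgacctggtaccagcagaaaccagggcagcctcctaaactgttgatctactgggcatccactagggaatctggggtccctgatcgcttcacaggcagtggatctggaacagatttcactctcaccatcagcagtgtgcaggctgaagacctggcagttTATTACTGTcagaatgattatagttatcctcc

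The segments differ in how well a read can be assigned to them. Of all stretches of 50 bases in the annotated transcript, 100.0% were found in no other immunoglobulin gene for Igkv14-126, 75.4% for Igkv8-19, 61.4% for Ighv11-2, 53.4% for Igkv10-94 and 25.7% for Igkv4-59. Counts of Igkv4-59 may therefore be shared with close relatives of its large Igkv4 subgroup, and are uncertain as counts of this 1 gene. Ighm and Igkc were at 100.0%, Iglc2 at 89.5% and Iglc3 at 89.3%.

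The first question was whether the immunoglobulin genes of ATMs differed between ST-HFD and LT-HFD. Igkc was higher on LT-HFD in both genotypes, by 2.11 on the log2 scale in WT and 1.75 in IRF5-KO, while Ighm was not called in either. On ST-HFD, Igkc was at 40.1, 27.1, 31.5 and 8.83 CPM in WT replicates 1 to 4 and at 9.595, 50.01, 55.7 and 14.2 CPM in IRF5-KO. On LT-HFD it was at 116.6, 111.8, 120.6 and 115.2 CPM in WT and at 120.2, 113.5, 73.9 and 125.6 CPM in IRF5-KO. All 8 LT-HFD libraries lay above all 8 ST-HFD libraries, and the ST-HFD libraries were more spread relative to their mean. In WT the mean rose from 26.9 ± 13.2 to 116 ± 3.65 CPM (SD, n = 4), with a standard error of 0.44 for the log2 fold change and an adjusted p of 0.00190 in edgeR's quasi-likelihood test. In IRF5-KO it rose from 32.4 ± 23.8 to 108.3 ± 23.4 CPM (SD, n = 4; standard error 0.44, adjusted p = 0.00556, edgeR).

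Many genes differed between the durations, so these calls stand against a high background. Mice fed for longer were also older when their cells were taken, and age cannot be told apart from diet duration here. In WT 25.3% of 11560 genes tested had an adjusted p under 0.05 and 12.1% were higher and 13.2% lower on LT-HFD, and in IRF5-KO 32.8% were called, 15.6% higher and 17.2% lower. The balance depended on scaling. In WT 1401 genes were higher and 1527 lower, against 1786 and 1215 with upper quartile scaling, and in IRF5-KO 1802 and 1986, against 2462 and 1554 (edgeR). Of the 9 macrophage markers, Csf1r and Itgam were lower in both genotypes, and in IRF5-KO C1qb and Mrc1 were also lower and Adgre1 and Fcgr1 higher. The part of this shift in the immunoglobulin levels was not tested. Of the 12 immunoglobulin genes that passed the filter on low counts in these fits, 4 were called in WT (Igkc, Igkv4-59, Iglc2 and Iglc3) and 3 in IRF5-KO (Igkc, Igkv4-59 and Iglv1), all higher on LT-HFD. The median log2 fold change of the 12 was 1.95 in WT, beside 0.02 over all genes tested, and 0.69 in IRF5-KO, beside 0.04. With 1 library left out, and so other genes tested, it ran from 1.82 to 2.95 in WT and 0.47 to 2.03 in IRF5-KO. These counts and medians are descriptive, and so are the calls of Igkv4-59, Iglc2, Iglc3 and Iglv1, because a gene that is close to 0 on ST-HFD passes the filter only through its LT-HFD libraries. Of the 12, 5 also passed among the ST-HFD libraries alone (Ighm, Igkc, Ighg, Igkv14-126 and Ighv11-2), and of these Igkc alone was called, in each genotype. The remaining 86 genes with a count were too low to be tested after the filter.

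Ighm, which had the most counts of the group, was at 199.6, 261, 197 and 163 CPM in WT and at 125, 278, 263 and 162.5 CPM in IRF5-KO on ST-HFD. On LT-HFD it was at 231, 261, 190.5 and 189 CPM in WT and at 198, 145, 116 and 239 CPM in IRF5-KO. All groups overlapped. On the log2 scale Ighm differed with diet duration by 0.09 (standard error 0.24, adjusted p = 0.833, edgeR) in WT and by -0.25 (standard error 0.24, adjusted p = 0.472, edgeR) in IRF5-KO. The heavy constant sum followed Ighm, at 206 ± 43.4 and 219 ± 33.6 CPM in WT (SD, n = 4) on ST-HFD and LT-HFD.

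**Figure D1:**
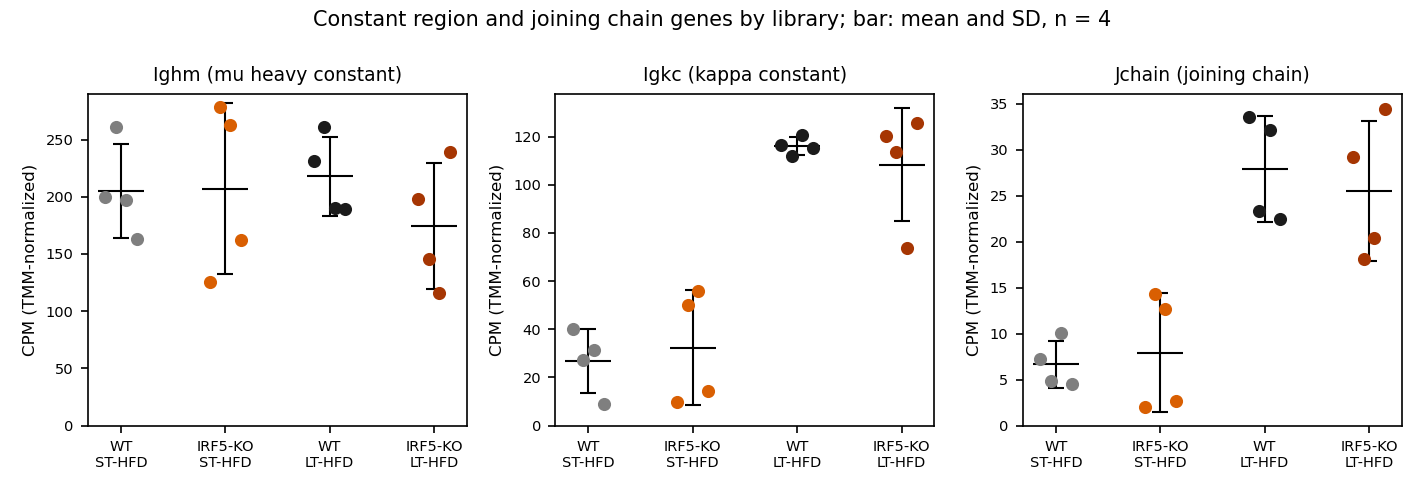
CPM (y axis) of Ighm, Igkc and Jchain in each library (points) of the 4 groups (x axis), with the mean and SD of each group as bars (n = 4). Igkc lay between 73.9 and 125.6 CPM in all LT-HFD libraries and between 8.83 and 55.7 CPM on ST-HFD, Jchain likewise shows no overlap of the durations, and the Ighm groups overlap.

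The order of the 2 genes differed between durations. Counted per kilobase of annotated exon, Igkc was below Ighm in all 8 ST-HFD libraries, at 0.192 to 0.712 of the Ighm level in WT and 0.271 to 0.753 in IRF5-KO. On LT-HFD it was above Ighm in all 8 libraries, at 1.52 to 2.25 times the Ighm level in WT and 1.86 to 2.77 times in IRF5-KO. This ratio is taken within a library, so it does not depend on how libraries are scaled to each other. The change of order rests also on the annotated exon lengths of 532 bases for Igkc and 1886 for Ighm. In counts Igkc was below Ighm in all 16 libraries, at 0.0542 to 0.212 of the Ighm count after the short diet and 0.429 to 0.781 after the long one, again without overlap.

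The kappa V segments, summed, showed the pattern of Igkc. In WT they were at 16.2 ± 9.40 CPM on the short and 60.9 ± 13.9 CPM on the long diet (SD, n = 4), a ratio of means of 3.76, and at 21.6 ± 15.4 and 63.7 ± 9.64 CPM in IRF5-KO (SD, n = 4), a ratio of 2.96. The durations did not overlap in either genotype. The sum was 0.381 to 0.728 counts per Igkc count over the 16 libraries, and the 4 groups overlapped in this ratio. Heavy V segments were fewer and less separated. They were at 4.82 ± 3.99 and 7.89 ± 3.54 CPM in WT and at 6.63 ± 4.55 and 9.17 ± 5.30 CPM in IRF5-KO (SD, n = 4), and all groups overlapped. They gave 0.00768 to 0.0907 counts per heavy constant count. The heavy V rows named as such in the table do not cover the locus. Under other names, 34 rows carry identifiers of immunoglobulin genes in GENCODE M21 and hold a further 309 counts. Of these, 21 rows with 220 counts are heavy V segments, so the heavy V sums are lower limits. In these bulk libraries more cells that make an mRNA and more of the mRNA per cell cannot be told apart.

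**Figure D2:**
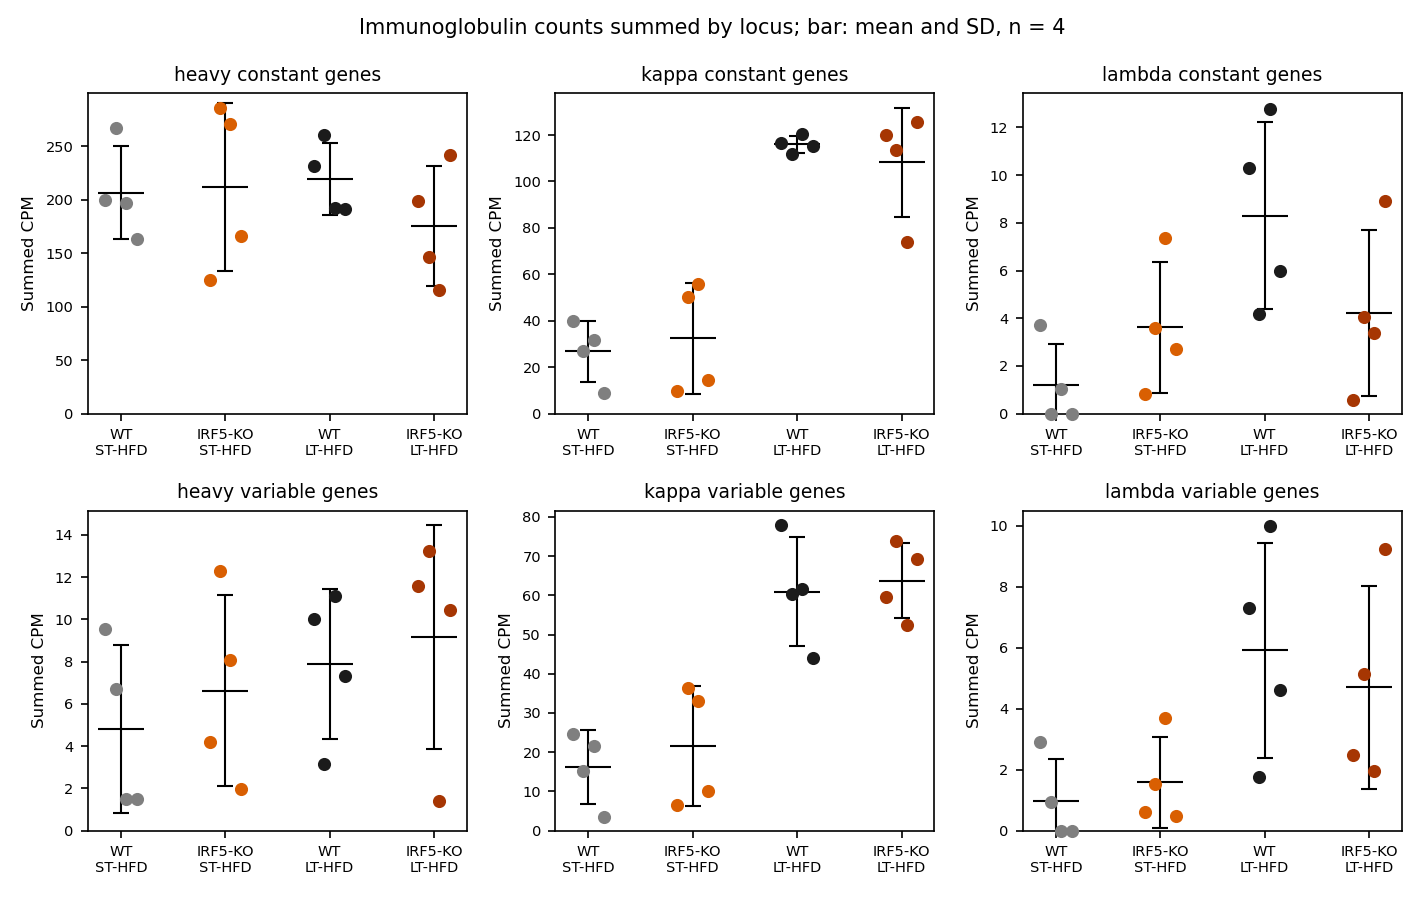
Summed CPM (y axis) of the constant genes (top row) and V segments (bottom row) of the heavy, kappa and lambda loci in each library (points) by group (x axis), with mean and SD (n = 4). Kappa V segments were at 16.2 ± 9.40 CPM in WT ST-HFD libraries and 60.9 ± 13.9 CPM in WT LT-HFD libraries, and both kappa panels show no overlap between the durations, unlike both heavy panels.

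**Figure D3:**
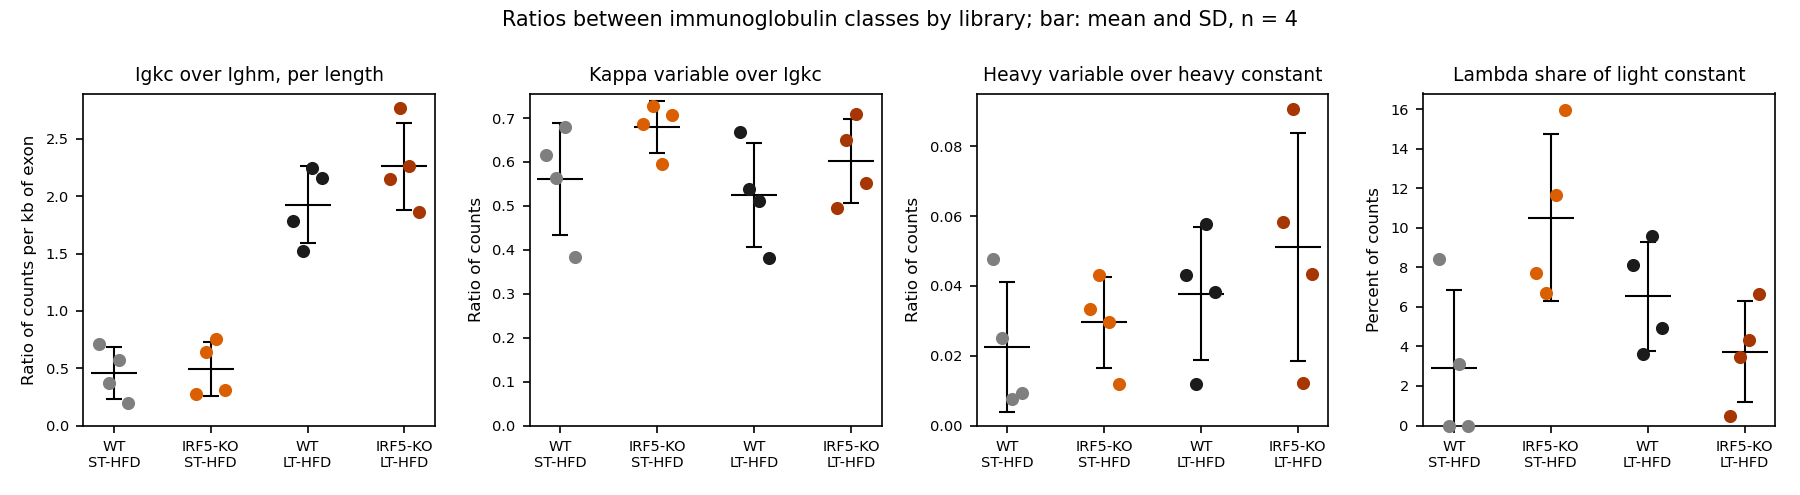
Ratios between classes in each library (points) by group (x axis), with mean and SD (n = 4): Igkc over Ighm in counts per kilobase of exon, kappa V counts per Igkc count, heavy V counts per heavy constant count, and lambda percent of light constant counts. Igkc over Ighm was at most 0.753 on ST-HFD and at least 1.52 on LT-HFD, while the other 3 ratios overlap between durations, except the lambda share in IRF5-KO (at least 6.70% with the short diet, at most 6.64% with the long one).

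The lambda genes were lower and less even. In WT the sum of the constant genes was 1.18 ± 1.75 CPM on ST-HFD and 8.29 ± 3.92 CPM on LT-HFD (SD, n = 4), without overlap, and in IRF5-KO it was 3.61 ± 2.76 and 4.22 ± 3.48 CPM (SD, n = 4), with overlap. WT ST-HFD replicate 1, at 3.70 CPM, was the highest of its group, and the log2 ratio of LT-HFD over ST-HFD in WT was 2.82 with it and 4.62 without it. Iglc2, on chromosome 16 of GRCm38 from 19198396 to 19200351, had 19, 0, 2 and 0 counts in the WT libraries on ST-HFD and 28, 7, 33 and 19 on LT-HFD. In WT it rose by 2.46 on the log2 scale (standard error 0.88, adjusted p = 0.0485, edgeR), and by 5.10 without WT ST-HFD replicate 1, which held 19 of the 21 counts at that duration (adjusted p = 0.00295, edgeR). The call was lost in 6 of the 8 fits that left out 1 library, all but those without WT ST-HFD replicate 1 or WT LT-HFD replicate 2, with adjusted p up to 0.113 (edgeR), and was also lost with a block for the replicate number (adjusted p = 0.0710, edgeR). Iglc3 had 0, 0, 2 and 0 counts in WT on ST-HFD and 10, 5, 13 and 3 on LT-HFD, and it rose by 4.02 on the log2 scale (standard error 1.25, adjusted p = 0.0248, edgeR). Without WT ST-HFD replicate 3 no count was left on ST-HFD, so that no fold can be given. Leaving out WT ST-HFD replicate 1, 2 or 4 or WT LT-HFD replicate 3 ended that call, with adjusted p up to 0.0662 (edgeR). In IRF5-KO the same genes had 3, 10, 11 and 2 counts (Iglc2) and 1, 4, 21 and 9 counts (Iglc3) on ST-HFD, and 2, 3, 11 and 20 and 0, 12, 1 and 9 on LT-HFD. There the durations overlapped and neither gene was called (adjusted p = 0.560 for Iglc2 and 0.767 for Iglc3, edgeR).

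Lambda thus took a different share of the light constant counts by library. The share was 0% in WT ST-HFD replicates 2 and 4 (an upper Wilson 95% limit of 3.18% and 7.56%), 3.10% and 8.44% in the other WT libraries on ST-HFD, and 6.70% to 15.9% in IRF5-KO on ST-HFD. On LT-HFD it was 3.60% to 9.56% in WT and 0.457% to 6.64% in IRF5-KO. The durations overlapped in WT and, by a narrow margin, did not in IRF5-KO, where the share was lower on LT-HFD. The Wilson intervals of the nearest libraries of the 2 durations, IRF5-KO ST-HFD replicate 2 (4.03% to 10.9%) and IRF5-KO LT-HFD replicate 4 (4.66% to 9.37%), overlapped. Intervals cover counting error only, as PCR copies are not separate molecules. Of the lambda V segments, Iglv1 was called in IRF5-KO, with 1, 2, 7 and 0 counts on ST-HFD and 8, 17, 3 and 23 on LT-HFD (log2 fold change 2.59, standard error 0.97, adjusted p = 0.0479, or 0.104 with the replicate block, edgeR). Leaving out IRF5-KO ST-HFD replicate 1, 2 or 4 or IRF5-KO LT-HFD replicate 1, 2 or 4 ended the call, with adjusted p up to 0.147 (edgeR).

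Igkv4-59 was the V segment called in both genotypes, although it passed the filter only through its LT-HFD libraries. It had 0, 4, 0 and 0 counts in WT and 2, 0, 0 and 0 counts in IRF5-KO on ST-HFD. On LT-HFD it was counted in all 8 libraries, with 133, 27, 9 and 3 counts in WT and 13, 17, 22 and 9 in IRF5-KO. WT LT-HFD replicate 1 held 55.6% of all its counts, and the WT mean on LT-HFD was 12.2 ± 16.3 CPM (SD, n = 4). It rose by 5.63 on the log2 scale in WT (standard error 1.13, adjusted p = 0.00128, edgeR) and by 4.89 in IRF5-KO (standard error 1.35, adjusted p = 0.0104, edgeR). The fold rests on few counts. In WT it was 4.06 on the log2 scale without WT LT-HFD replicate 1, and without WT ST-HFD replicate 2 no count was left on ST-HFD, so that no fold can be given. The same holds in IRF5-KO without IRF5-KO ST-HFD replicate 1. Adjusted p stayed at or below 0.00700 in WT and 0.0325 in IRF5-KO with any 1 library left out (edgeR).

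**Figure D4:**
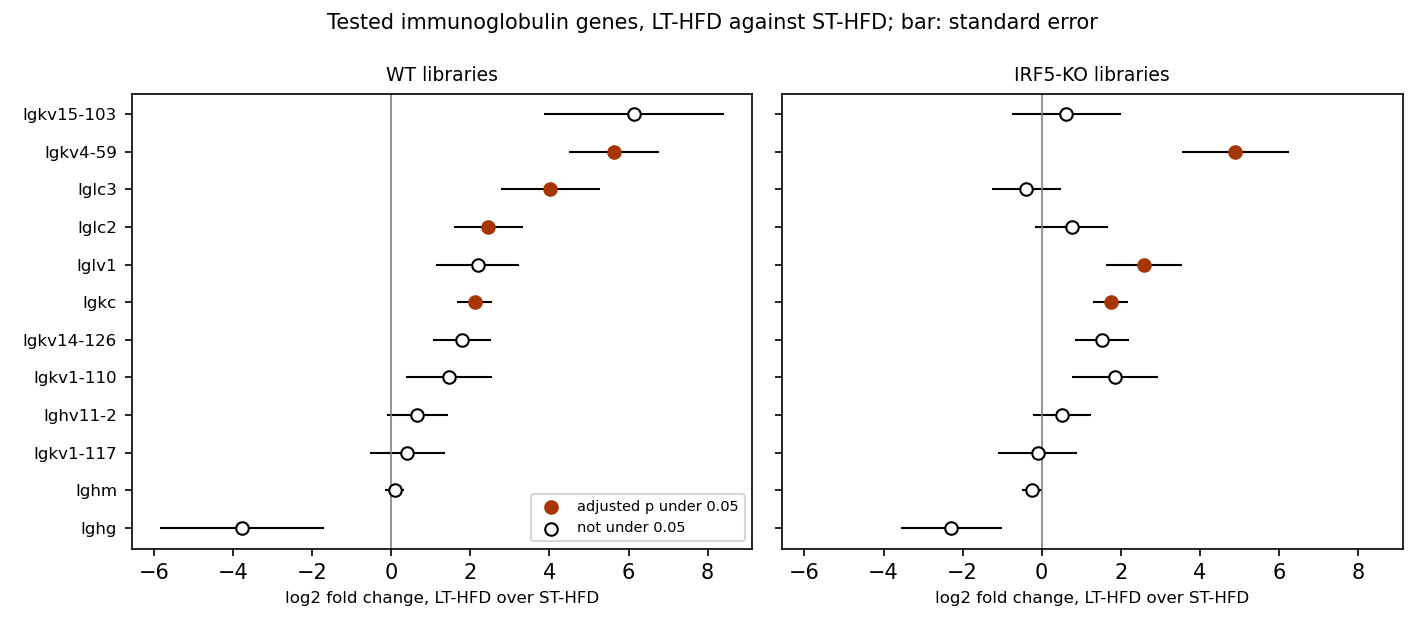
Log2 fold change of LT-HFD over ST-HFD (x axis) with its standard error (bars) for the 12 tested immunoglobulin genes (y axis), in WT (left) and IRF5-KO libraries (right). Filled points passed an adjusted p of 0.05 (edgeR), and Igkc and Igkv4-59 are filled in both panels, with Igkc at 2.11 and 1.75.

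Igkv14-126 and Ighv11-2 encode the light and heavy V regions of a well-known antibody of B-1 cells that binds phosphatidylcholine. Igkv14-126 had 45, 9, 0 and 12 counts in WT and 7, 60, 30 and 5 in IRF5-KO on ST-HFD, and 29, 28, 70 and 38 in WT and 90, 69, 28 and 61 in IRF5-KO on LT-HFD. Ighv11-2 had 39, 17, 0 and 8 counts in WT and 16, 36, 27 and 4 in IRF5-KO on ST-HFD, and 26, 9, 27 and 12 in WT and 39, 33, 3 and 24 in IRF5-KO on LT-HFD. Both were at 0 in the same library, WT ST-HFD replicate 3, which had 85 kappa V counts from other segments. Igkv14-126 was the most counted kappa V segment in 10 of 16 libraries and held 24.2% of all kappa V counts, and Ighv11-2 was the single most counted of the rows named as heavy V segments in 14 of 16, tied with Ighv9-3 at 4 counts in IRF5-KO ST-HFD replicate 4 and held 71.6% of their counts. With 21 further rows that carry heavy V identifiers under other names, counted after the values had been seen, its share was 48.0% of 667 counts. It was then alone at the top in 13 libraries, and the tie was joined by Ighv4-1, while Ighv4-1 led WT ST-HFD replicate 3 with 13 counts and Ighv3-6 led IRF5-KO LT-HFD replicate 3 with 7. Neither was called with diet duration. The log2 fold change of Igkv14-126 was 1.79 in WT (standard error 0.74, adjusted p = 0.0861, edgeR) and 1.52 in IRF5-KO (standard error 0.69, adjusted p = 0.09998, edgeR), and that of Ighv11-2 was 0.66 in WT (standard error 0.77, adjusted p = 0.580, edgeR) and 0.52 in IRF5-KO (standard error 0.73, adjusted p = 0.624, edgeR). Igkv14-126 was called in both genotypes where no filter on low counts was used, with adjusted p of 0.0293 in WT and 0.0420 in IRF5-KO (edgeR), and also without WT ST-HFD replicate 1 (0.0164) or IRF5-KO ST-HFD replicate 2 (0.0193), its highest library at that duration in each genotype.

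Beside this recurrent pair, single libraries carried their own segments. Igkv10-94 had 46 counts in WT LT-HFD replicate 2, where it was the top kappa segment with 26.6% of kappa V counts (Wilson 95% interval 20.6% to 33.6%), and at most 7 in any other library. Igkv8-19 had 43 counts in IRF5-KO LT-HFD replicate 3, 23.0% of its kappa V counts (17.5% to 29.5%), and at most 8 elsewhere. Igkv4-59 made up 46.2% (40.5% to 51.9%) of the kappa V counts of WT LT-HFD replicate 1. In the lambda locus, all 36 lambda V counts of WT LT-HFD replicate 3 came from Iglv2, and Iglv1 gave 16 of 27 in WT LT-HFD replicate 1 and 23 of 30 in IRF5-KO LT-HFD replicate 4. A library on ST-HFD held 6 to 21 kappa V segments with a count and one on LT-HFD 18 to 35, from 656 and 1746 kappa V counts in all, so the durations differ in the number of counts from which segments could be seen. Over all libraries 45 kappa segments were seen at both durations, 23 on LT-HFD alone and 1 on ST-HFD alone.

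**Figure D5:**
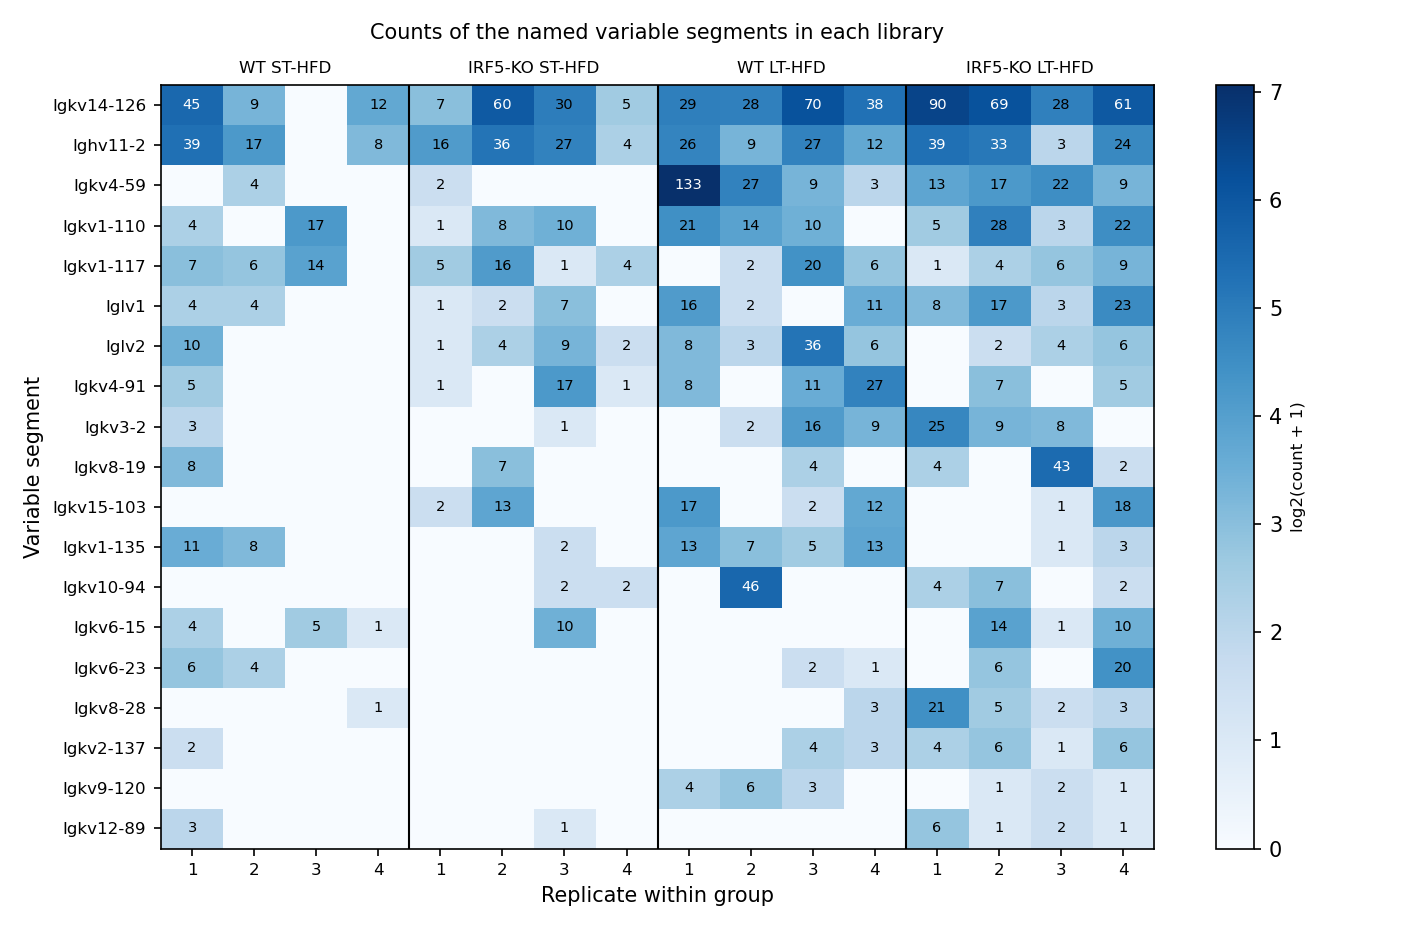
Counts (numbers, with colour on a log2(count + 1) scale) of the 19 named V segments (rows) in each of the 16 libraries (columns, by group and replicate); empty cells are 0. Igkv14-126 and Ighv11-2 fill 15 of 16 columns, whereas Igkv10-94, with 46 counts in WT LT-HFD replicate 2, and Igkv8-19, with 43 in IRF5-KO LT-HFD replicate 3, stand high in 1 column each.

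Without the filter on low counts, 98 immunoglobulin genes entered the diet comparisons. In WT 14 were called higher on LT-HFD, beside 5.77% of all genes, and in IRF5-KO 11 were called, beside 7.27% (edgeR, adjusted p under 0.05), with 5 called in both (Igkc, Igkv12-46, Igkv14-126, Igkv3-2 and Igkv4-59). By DESeq2, also without the filter, 4 of the 98 were called higher in WT, beside 7.24% of all genes, and 6 in IRF5-KO, beside 8.45%, so by that tool the share of immunoglobulin genes called was below that of all genes. The 2 comparisons set different libraries against each other, but for each tool they come from the same fit over 16 libraries. They are therefore not independent. Many of these segments rested on very few libraries, as in Igkv10-94 above. Igkv15-103, with no count in WT on ST-HFD and 17, 0, 2 and 12 on LT-HFD, was at least 13.97-fold higher against a floor of 3 counts over the group, and was called without the filter (adjusted p = 0.0155, edgeR) but not with it (adjusted p = 0.0623, edgeR). Igkv3-2 had 3, 0, 0 and 0 counts in WT and 0, 0, 1 and 0 in IRF5-KO on ST-HFD, against 0, 2, 16 and 9 and 25, 9, 8 and 0 on LT-HFD. Igkv8-28 had 0 in every IRF5-KO library on ST-HFD and 21, 5, 2 and 3 on LT-HFD, and Igkv2-137 had 0 in the former and 4, 6, 1 and 6 in the latter. Igkv9-120, with no count on ST-HFD, had 4, 6, 3 and 0 in WT on LT-HFD. Igkv4-91, the light V segment of another phosphatidylcholine antibody, was uneven at both durations (5, 0, 0 and 0 in WT and 1, 0, 17 and 1 in IRF5-KO on ST-HFD, and 8, 0, 11 and 27 and 0, 7, 0 and 5 on LT-HFD).

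The second question was whether genotype mattered. No immunoglobulin gene was called between IRF5-KO and WT at either duration, by edgeR or by DESeq2. On ST-HFD 5 were tested, none had even an unadjusted p under 0.05, and 0.00913% of 10958 genes were called. On LT-HFD 8 were tested, again none had an unadjusted p under 0.05, and 0.0182% of 10987 genes were called. For Igkc the log2 fold change of IRF5-KO over WT was 0.25 (standard error 0.55, adjusted p = 0.9998, edgeR) on ST-HFD and -0.10 (standard error 0.15, adjusted p = 0.970, edgeR) on LT-HFD. For Ighm it was 0.0048 (standard error 0.23, adjusted p = 0.9998, edgeR) and -0.33 (standard error 0.21, adjusted p = 0.885, edgeR). With a block for the replicate number, 1 of 5 tested genes on ST-HFD, beside 4.12% of all genes, and 1 of 8 on LT-HFD, beside 5.47%, passed an unadjusted p under 0.05, and none an adjusted one. Without the filter on low counts 14 of 67 genes on ST-HFD, beside 2.37% of all genes, and 20 of 94 on LT-HFD, beside 5.53%, had an unadjusted p under 0.05 in edgeR, and again none had an adjusted one.

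DESeq2 without the filter was also read at looser thresholds, an unadjusted p under 0.05 with a log2 fold change beyond 1 in either direction. On ST-HFD 1 of 67 immunoglobulin genes met them, Iglc3 (higher in IRF5-KO, 1, 4, 21 and 9 counts against 0, 0, 2 and 0 in WT), beside 0.522% of all genes. On LT-HFD 7 of 94 met them, beside 0.915% of all genes. Igkv6-15 was counted in 3 IRF5-KO libraries (0, 14, 1 and 10) and in no WT library, at least 8.17-fold higher. Igkv8-28 (21, 5, 2 and 3 against 0, 0, 0 and 3 in WT), Igkv12-89 (6, 1, 2 and 1 against 0) and Igkv6-23 (0, 6, 0 and 20 against 0, 0, 2 and 1) were the others on the side of IRF5-KO. Igkv1-135 (0, 0, 1 and 3 against 13, 7, 5 and 13 in WT), Iglv2 (0, 2, 4 and 6 against 8, 3, 36 and 6) and Ighg2c (0 against 0, 0, 6 and 9) were on the side of WT. None had an adjusted p under 0.05, the smallest being 0.659 for Igkv1-135 (DESeq2). On LT-HFD the genotypes overlapped for Igkv6-15, Igkv8-28, Igkv6-23, Iglv2 and Ighg2c. These genes were picked by their difference in the same libraries. On ST-HFD Igkv1-135 had 11, 8, 0 and 0 counts in WT and 0, 0, 2 and 0 in IRF5-KO.

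The interaction of genotype and diet duration called 0 of 12 immunoglobulin genes, beside 0% of 11560 genes, and 1 of the 12 had an unadjusted p under 0.05 in edgeR, beside 3.93% of all genes. This was Iglc3 (log2 difference of the diet effects -4.40, standard error 1.55, unadjusted p = 0.0110, adjusted p = 0.969, edgeR), whose 2 counts in WT on ST-HFD came from 1 library and which rose with diet duration in WT and was not called in IRF5-KO. DESeq2 called 0 of 98, with 2 at an unadjusted p under 0.05, Iglc3 and Igkv6-23, beside 2.49% of all genes, and edgeR without the filter called 0 of 98, with 19 at an unadjusted p under 0.05, beside 4.27% of all genes. For Igkc the difference of the diet effects was -0.37 (standard error 0.61, adjusted p = 0.976, edgeR).

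Of the partners of immunoglobulin, Jchain, which links IgM and IgA into polymers and is made by antibody-secreting cells, followed Igkc. It was at 7.20, 4.86, 10.1 and 4.51 CPM in WT and 2.00, 14.4, 12.7 and 2.7 CPM in IRF5-KO on ST-HFD, and at 33.55, 23.3, 32.2 and 22.5 CPM in WT and 29.2, 18.1, 20.4 and 34.49 CPM in IRF5-KO on LT-HFD. The durations did not overlap, and Jchain rose by 2.08 in WT (standard error 0.44, adjusted p = 0.00214, edgeR) and 1.70 in IRF5-KO (standard error 0.44, adjusted p = 0.00668, edgeR) on the log2 scale. On ST-HFD the lowest libraries for Igkc (WT replicate 4 and IRF5-KO replicates 1 and 4) were also the lowest for Jchain, and IRF5-KO replicates 2 and 3 were the highest for both. The share of counts in the 3 most counted features was 18.6%, 18.7% and 21.7% in these low libraries and 24.1% and 23.5% in these high ones, but did not follow Igkc in WT replicates 1, 2 and 3, at 20.8%, 22.5% and 23.3% with Igkc at 40.1, 27.1 and 31.5 CPM. The part of this share in the immunoglobulin levels was not tested.

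Of the 12 plasma cell genes in the list, 9 were tested. In WT 1 was called higher (Jchain), beside 12.1% of all genes, and 1 lower, beside 13.2%. The lower one was the endoplasmic reticulum protein gene Creld2 (log2 fold change -0.58, adjusted p = 0.00435, edgeR). In IRF5-KO 3 were higher, beside 15.6% of all genes. They were Jchain, the protein disulphide isomerase gene Txndc5 (0.46, adjusted p = 0.0140, edgeR) and the secretory regulator Xbp1 (0.38, adjusted p = 0.0383, edgeR). The list median was 0.25 in WT and 0.38 in IRF5-KO, and its summed level was 345 to 415 CPM in WT and 358 to 387 CPM in IRF5-KO on ST-HFD and 415 to 464 and 419 to 496 CPM on LT-HFD. Much of that sum came from Sdc1, Xbp1 and Txndc5, which are not restricted to plasma cells. Mzb1, a chaperone of IgM-secreting B cells, had 16 counts in 4 of 8 libraries on ST-HFD and 48 in all 8 on LT-HFD.

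The defining markers of B cells named here were near 0. Ms4a1 (CD20) had 15 counts over the 8 ST-HFD libraries and 39 over the 8 LT-HFD libraries, and Cd79a, the signalling chain of the B cell receptor, 28 and 31. The B cell kinase Blk had 0 and 10, and the B cell transcription factor Pax5 12 and 8. Only 4 of the 16 genes of the B cell list were tested, and in both genotypes 1 was called higher and 1 lower on LT-HFD. Over all genes 12.1% were higher and 13.2% lower in WT, and 15.6% and 17.2% in IRF5-KO. Ebf1, a transcription factor of early B cells and also of adipocyte precursors, rose by 2.95 in WT (adjusted p = 1.09e-04, edgeR) and 1.52 in IRF5-KO (adjusted p = 0.00696, edgeR). The adaptor gene Bank1 fell by 0.81 (adjusted p = 0.0303, edgeR) and 1.53 (adjusted p = 4.94e-04, edgeR). The summed level of the list was 55.8 to 86.8 CPM in WT and 55.2 to 60.5 CPM in IRF5-KO on ST-HFD and 54.9 to 72.4 and 36.5 to 58.2 CPM on LT-HFD, and 2 to 4 of its genes were at 0 in a whole group. The part of B cells or plasma cells among the sorted cells in the immunoglobulin levels was not tested. T cell markers overlapped between durations, with a summed level of 12.2 to 47.2 CPM on ST-HFD and 6.22 to 22.7 CPM on LT-HFD. Of 10, 2 were tested and 1 was called, Cd4, lower on LT-HFD in IRF5-KO, beside 17.2% of all genes (log2 fold change -2.06, adjusted p = 0.0480, or 0.0864 with the replicate block, edgeR). IRF5-KO ST-HFD replicate 2 held 92 of the 143 Cd4 counts of its group.

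Genes for the machinery of rearrangement were close to absent. Rag1 had 4 counts, in 2 libraries, Rag2 and the surrogate light chain genes Igll1 and Vpreb2 had none, and Vpreb1 and Dntt had at most 2 in any library. Of this list of 8 only the DNA repair gene Ung was tested, and it was not called in any comparison. The intracellular signalling genes that B cell receptors share with myeloid receptors were abundant, at a summed 2249 to 2392 CPM on ST-HFD, and were lower on LT-HFD, at 1417 to 1742 CPM. All 14 were tested. Lower on LT-HFD were 8 in WT, beside 13.2% of all genes, and 6 in IRF5-KO, beside 17.2%, among them the kinase Syk (-0.92 in each genotype, with adjusted p of 2.0e-05 in WT and 1.4e-05 in IRF5-KO, edgeR) and the phospholipase Plcg2 (-0.90 and -1.16, with adjusted p of 3.6e-05 and 2.0e-06, edgeR). None was higher.

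Among the factors that bind immunoglobulin promoters and enhancers, Pou2f2 (Oct-2) fell by 1.34 in WT (adjusted p = 0.00160, edgeR) and by 1.75 in IRF5-KO (adjusted p = 1.87e-04, edgeR). Spi1 (PU.1), which acts on kappa and lambda enhancers as well as on macrophage genes, fell by 0.44 (adjusted p = 0.0213, edgeR) and 0.52 (adjusted p = 0.00644, edgeR). Of the 6 genes of that list, 3 were lower in WT and 5 in IRF5-KO, against the same shares of all genes, and none was higher. Of 9 receptors of immunoglobulin, 6 were tested. None was called in WT, and in IRF5-KO the high-affinity IgG receptor Fcgr1 was higher (0.44, adjusted p = 0.0445, or 0.0554 with the replicate block, edgeR) and the inhibitory IgG receptor Fcgr2b lower (-1.04, adjusted p = 0.00227, edgeR). Over all genes 15.6% were higher and 17.2% lower in IRF5-KO. The receptors of IgM and polymeric immunoglobulin, Fcmr and Pigr, had at most 3 and 4 counts in any library, and Fcamr had none. None of the genes in these lists was called between genotypes at either duration in edgeR.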

How the data were processed

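The authors sequenced ribosome-depleted total RNA of F4/80+ ATMs, trimmed reads with fastp 0.19.11, aligned them to mm10 with STAR 2.7.3a and deposited raw, unnormalised counts for each gene. The annotation release and strand setting were not given in the sources used here. Of the 152 gene rows, 73 matched GENCODE M21 by identifier and symbol, 1 by identifier only and 78 by symbol only.

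Counts were filtered with filterByExpr, normalised by TMM and tested with edgeR 4.0.16 (quasi-likelihood, two-sided, R 4.3.3) over all genes, with Benjamini-Hochberg adjustment. Genotypes were compared within each duration, and durations and the interaction over 16 libraries. Standard errors are the log2 fold change over the root of F. Locus sums got no test. Alternatives were DESeq2 1.42.0, other scalings, no filter, a replicate block and leaving out each library. Methods were tested on simulated counts. The genes named were constant genes, tested genes, the 10 most counted V segments, genes with an unadjusted p under 0.05 and a log2 fold change beyond 1 in either direction, and V segments holding over 50% of their locus in a library with at least 20 counts there. Genes and lists were chosen with earlier results of these data known. The replicate block was run as an alternative in every comparison, although the labels do not say that equal numbers are pairs. Between the genotypes on ST-HFD, same-numbered libraries had correlations over genes of 0.348, 0.472, 0.172 and 0.295. Those of differently numbered libraries ran from -0.489 to 0.449 (the highest for WT replicate 4 with IRF5-KO replicate 1), so pairs are uncertain there too. For same-numbered libraries on LT-HFD they were -0.0652, -0.152, 0.0571 and 0.227. Some genes of the lists are not reported here.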

Additional observations from a re-analysis of the deposited data

Results flagged for a closer look

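A library stood apart from the other 3 of its group in 12 of 78 checks, 1 for each named gene or locus sum and group whose highest library had at least 10 counts, where chance alone gives about 1 in 20 for values spread evenly around their mean. That rate does not carry over to these sparse counts, as genes were named in part for high counts and a low library cannot lie below 0. Among ST-HFD libraries this held for Iglc2 (19 counts) and Iglv2 (10 counts) in WT replicate 1, Ighg (25 counts) in WT replicate 2, Igkv15-103 (13 counts) in IRF5-KO replicate 2, and Igkv4-91 (17 counts), Igkv6-15 (10 counts) and Ighg2c (17 counts) in IRF5-KO replicate 3. Among LT-HFD libraries it held for Igkv10-94 (46 counts) in WT replicate 2, Iglv2 (36 counts) in WT replicate 3, Igkv8-28 (21 counts) in IRF5-KO replicate 1, Igkv8-19 (43 counts) in IRF5-KO replicate 3 and Igkv15-103 (18 counts) in IRF5-KO replicate 4. These genes were V segments, lambda constant or IgG genes, and neither Ighm nor Igkc was among them.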

How the results depend on the processing

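Igkc stayed higher on LT-HFD, and called, in both genotypes under every alternative run. The number of immunoglobulin genes called with diet duration did move. In WT it was 4 of 12 tested (12.1% of all genes higher), against 4 of 98 by DESeq2 (7.24%) and 14 of 98 without a filter on low counts (5.77%). With only the 8 WT libraries fitted it was 1 of 6 (1113 of 10930 genes higher). When 1 library was left out it was 2 to 6 of 13 to 15 (964 to 1401 of 11706 to 11760 genes), and 2 without WT ST-HFD replicate 2 or 4. In IRF5-KO it was 3 of 12 (15.6%), against 6 of 98 by DESeq2 (8.45%) and 11 of 98 without a filter (7.27%). With only the 8 IRF5-KO libraries fitted it was 2 of 5 (1565 of 11018 genes higher). With 1 library left out it was 2 to 3 of 13 to 15 (1378 to 1755 of 11727 to 11758 genes). The number tested moved with these settings as well. With the replicate block 3 were called in WT, where Iglc2 was lost (adjusted p = 0.0710, edgeR), and 2 in IRF5-KO, where Iglv1 was lost (adjusted p = 0.104, edgeR), and it changed no other call of an immunoglobulin gene. No alternative called an immunoglobulin gene between genotypes or in the interaction. Upper quartile scaling moved the median log2 fold change of all genes from 0.04 to 0.15 in IRF5-KO.

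Of 312 alternative values of the locus sums, 308 moved by less than the replicate spread, and the other 4 came from leaving out WT ST-HFD replicate 1. The log2 ratio of the lambda constant sum was then 3.43 for IRF5-KO over WT on ST-HFD (1.01 to 3.43 over libraries left out) and 4.62 for LT-HFD over ST-HFD in WT (2.40 to 4.62), and that of the lambda V sum 2.35 (-0.13 to 2.35) and 4.26 (2.21 to 4.26). The heavy V sum with the rows under other names, added after seeing the data, was among those that moved less, with log2 ratios of 0.30 to 0.41 over the 4 comparisons.

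Differences that were not called and changed sign are given as the range of log2 fold changes with 1 library left out. For IRF5-KO over WT on ST-HFD these were Ighm (-0.17 to 0.18, and -0.0092 with upper quartile scaling, -0.0050 without a filter and -0.0448 with the replicate block), Igkc (-0.15 to 0.56) and Igkv14-126 (-0.11 to 2.00), and on LT-HFD Igkc (-0.18 to 0.0472), Igkv1-110 (-0.18 to 0.76) and Igkv4-59 (-1.91 to 0.0899). For diet duration in WT they were Ighg (-5.52 to 1.72), Ighm (-0.0106 to 0.22) and Igkv1-117 (-0.93 to 1.13), and in IRF5-KO Igkv1-117 (-0.59 to 0.92, and 0.0056 with upper quartile scaling), Igkv15-103 (-2.91 to 2.99), Iglc2 (-0.0477 to 1.12) and Iglc3 (-1.05 to 0.48). For the interaction they were Ighg (-4.00 to 3.23), Ighv11-2 (-0.9989 to 0.34), Igkc (-0.68 to 0.0419), Igkv1-110 (-1.61 to 1.03), Igkv1-117 (-1.24 to 0.82), Igkv14-126 (-1.43 to 0.67), Igkv4-59 (-3.72 to 1.45) and Iglv1 (-0.17 to 1.63). The cause was not tested. A count of 0 allows up to 3 counts, and 86 genes with a count were untested after the filter.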

Other observations

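The constant gene of IgG3 stands in the table under the older name AI324046 and was therefore outside the group described above. It had 75 counts, in 6 of 16 libraries, with 17 in WT ST-HFD replicate 3, 17 and 26 in IRF5-KO ST-HFD replicates 3 and 4 and 10 in IRF5-KO LT-HFD replicate 3. With Ighg, which had 25 counts in WT ST-HFD replicate 2, 27, 19 and 14 in IRF5-KO ST-HFD replicates 2 to 4 and 8 in IRF5-KO LT-HFD replicate 4, IgG counts were thus gathered in a few libraries. For Ighg the diet difference was not called in either genotype (adjusted p = 0.204 in WT and 0.184 in IRF5-KO, edgeR). The heavy V segment Ighv6-3, listed as Gm16930, had 90 counts in 14 libraries and would have ranked among the 10 most counted V segments.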
